A study of Mus musculus with 48 samples.

Results

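The Myc, Max and Mxd network was followed through differentiation of C2C12 cells, a mouse myoblast line that fuses into myotubes when serum is withdrawn. Its members here were the 8 genes Myc, Mycn, Max, Mxd1, Mxd3, Mxd4, Mxi1 and Mnt, and every probe set annotated with exactly one of these symbols was taken. That gave 19 of the 45101 probe sets on the Affymetrix MOE430v2 array, and 8 of the 18193 genes that could be named. RNA had been hybridised to 48 arrays, 3 for each of 16 groups. In cycloheximide groups, cells had received 50 µM of this inhibitor of protein synthesis 1 h before differentiation medium, and were taken 1 h or 3 h after the change of medium, so after 2 h or 4 h of the drug. Differentiating cells without the drug had been moved to DMEM with 2% horse serum and were taken at 12 times between 0.5 h and 144 h. Growing cells were kept in DMEM with 20% FBS and were taken at 0 h and 24 h before. All groups were of this single cell line. No drug-treated cells at 0 h were analysed here, so each drug group was set against untreated cells of its own time. The labels do not say that replicates were separate cultures. The p values rest on the spread between the 3 arrays within a group, pooled over all 16 groups, and that spread may be technical.

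The values are RMA levels on a log2 scale, on which a difference of 1 is a change of 2 times. Array medians lay between 4.0 and 4.16 without cycloheximide, and between 4.2 and 4.24 on the 6 cycloheximide arrays. Over all genes, cycloheximide cells were higher than untreated cells by a median of 0.20 at 1 h and 0.19 at 3 h, so small rises with the drug are read against that shift. Of 10 muscle markers, the median level was 5.47 (24 h before), 9.04 (0 h) and 11.82 (144 h). Against 0 h, 8 of them had risen and 1 had fallen at 144 h, when Myf5 was the lowest at 5.85. Of all genes, 13.5% had risen and 14.9% had fallen at that time. The median of 10 markers of fat, blood, vessel and cartilage cells stayed between 3.62 and 3.89, with Sox9 the highest of them at 6.24 to 7.36. Fewer cells of a kind and less RNA per cell cannot be told apart in such bulk samples. No detection calls were used, and a level near the array medians may be close to background.

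Myc and Mycn are transcription factors that bind DNA only as partners of Max, at the E-box CACGTG, where they recruit acetyltransferase complexes and raise genes for ribosome assembly, metabolism and growth. Mxd1, Mxd3, Mxd4, Mxi1 and Mnt pair with the same Max at the same sequence and recruit Sin3 and histone deacetylases instead. Myc is typical of proliferating myoblasts and its mRNA is short-lived, whereas Mxd proteins are known mostly from cells that leave the cell cycle and differentiate.

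Of the 8 genes, 7 had a promoter window in the RefSeq set used here (GRCm38.p6), which spans 250 bases before to 50 bases after an annotated start. The windows of Mxd4, Mnt and Mxi1 are printed because their levels moved together. That of Max is printed for its E-box, and that of Mxd1 because it was the one repressor that rose late. Capitals mark matches to any of 7 motifs searched on both strands.
Mxd4 (chr5:34187661-34187960, minus strand): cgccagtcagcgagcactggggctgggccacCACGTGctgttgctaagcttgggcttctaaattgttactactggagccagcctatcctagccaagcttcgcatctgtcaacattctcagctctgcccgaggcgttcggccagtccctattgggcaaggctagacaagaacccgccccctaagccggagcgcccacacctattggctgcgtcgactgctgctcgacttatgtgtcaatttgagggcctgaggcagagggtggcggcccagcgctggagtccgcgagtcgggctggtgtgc
Mnt (chr11:74830674-74830973, plus strand): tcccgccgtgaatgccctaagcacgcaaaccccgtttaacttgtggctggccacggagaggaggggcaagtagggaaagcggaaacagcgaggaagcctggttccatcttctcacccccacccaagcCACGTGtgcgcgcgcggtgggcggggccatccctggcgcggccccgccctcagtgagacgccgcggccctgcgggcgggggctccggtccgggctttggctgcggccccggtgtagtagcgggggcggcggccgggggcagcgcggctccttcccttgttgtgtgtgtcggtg
Max (chr12:76962199-76962498, minus strand): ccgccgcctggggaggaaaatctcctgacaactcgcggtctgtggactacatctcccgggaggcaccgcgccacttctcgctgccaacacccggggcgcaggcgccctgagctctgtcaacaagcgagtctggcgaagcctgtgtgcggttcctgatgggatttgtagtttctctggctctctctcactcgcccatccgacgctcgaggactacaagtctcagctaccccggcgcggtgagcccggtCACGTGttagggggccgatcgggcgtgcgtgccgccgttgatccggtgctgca
Mxi1 (chr19:53329445-53329744, plus strand): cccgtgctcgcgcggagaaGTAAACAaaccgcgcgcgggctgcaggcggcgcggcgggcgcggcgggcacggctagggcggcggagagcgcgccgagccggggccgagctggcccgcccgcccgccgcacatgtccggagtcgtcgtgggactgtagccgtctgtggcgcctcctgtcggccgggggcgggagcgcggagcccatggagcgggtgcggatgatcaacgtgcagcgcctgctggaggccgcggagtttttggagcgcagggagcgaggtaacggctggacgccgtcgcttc
Mxd1 (chr6:86669110-86669409, minus strand): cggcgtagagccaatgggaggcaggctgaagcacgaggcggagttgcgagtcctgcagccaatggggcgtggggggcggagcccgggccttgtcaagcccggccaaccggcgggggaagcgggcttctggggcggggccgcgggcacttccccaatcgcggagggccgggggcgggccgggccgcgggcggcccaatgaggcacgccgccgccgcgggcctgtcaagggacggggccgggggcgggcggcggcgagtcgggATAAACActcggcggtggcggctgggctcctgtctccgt

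The network's own site, CACGTG, stood in the windows of Mxd4, Mnt and Max, 3 of the 7 genes, and in 8.09% of the 27025 genes with a window. Counted from the annotated start, it began at position -219 in Mxd4, -123 in Mnt and -3 in Max. The forkhead elements GTAAACA and ATAAACA, which FoxO factors bind, stood in 4.05% and 5.28% of genes. GTAAACA was found at -231 in one of 3 windows of Mxi1, and ATAAACA at 12 in Mxd1. The E2F elements TTTGGCGC, TTTCGCGC and TTTCCCGC stood in 0.585%, 0.374% and 1.24% of genes. The Mycn window held TTTGGCGC at -183 and -168, and the first of these overlapped TTTCGCGC on the other strand at -179. The myogenic E-box CAGCTG, present in 18.3% of genes, was in no member's window, and the window of Mxd3 held none of the 7 motifs. On the same build Myc lies at chr15:61985341-61990361, Mycn at chr12:12936093-12941836 and Mxd3 at chr13:55325170-55329900. The matches describe the letters of the windows only.

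Over the 12 differentiation times together, 5 of the 8 genes changed against 0 h by limma's F-test, namely Myc, Mxd1, Mxd4, Mxi1 and Mnt. Of all genes tested, 38.2% passed the same test. Myc was called only at 1 h, Mxd1 from 48 h on, and Mxi1, Mxd4 and Mnt had their lowest untreated means in differentiation medium at 48 h. Mycn, Max and Mxd3 did not pass, with adjusted p of 0.28, 0.105 and 0.32. Across all 16 groups, the span between the highest and lowest group mean was 4.30 log2 units for Myc, more than for 99.2% of genes, and 2.50 for Mxd1, more than for 95%. The other spans were 1.50 for Mxi1, 1.26 for Mxd4, 1.08 for Mnt, 1.07 for Mxd3, 0.87 for Max and 0.68 for Mycn. When the 16 groups are put in order of level, neighbours had overlapping arrays in all 15 pairs for Mxi1, Mxd3, Max and Mycn, in 14 for Mnt, in 13 for Mxd4 and Myc and in 12 for Mxd1. No member was called at any other time up to 12 h. Of all genes, the early times (0.5, 1.5, 2, 3 and 6 h) called 0.0385%, 0.423%, 0.517%, 0.39% and 0.506%, and the later ones (9 and 12 h) 1.36% and 2.82%. At an unadjusted p under 0.05 limma gave 0, 3, 1, 3 and 2 of the 8 genes at the 5 early times in that order, and 3 and 1 at the later ones. At that looser threshold 2.7%, 10.2%, 7.45%, 7.35% and 8.04% of all genes passed at the early times, and 10.4% and 13.5% at the later ones.

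**Figure D1:**
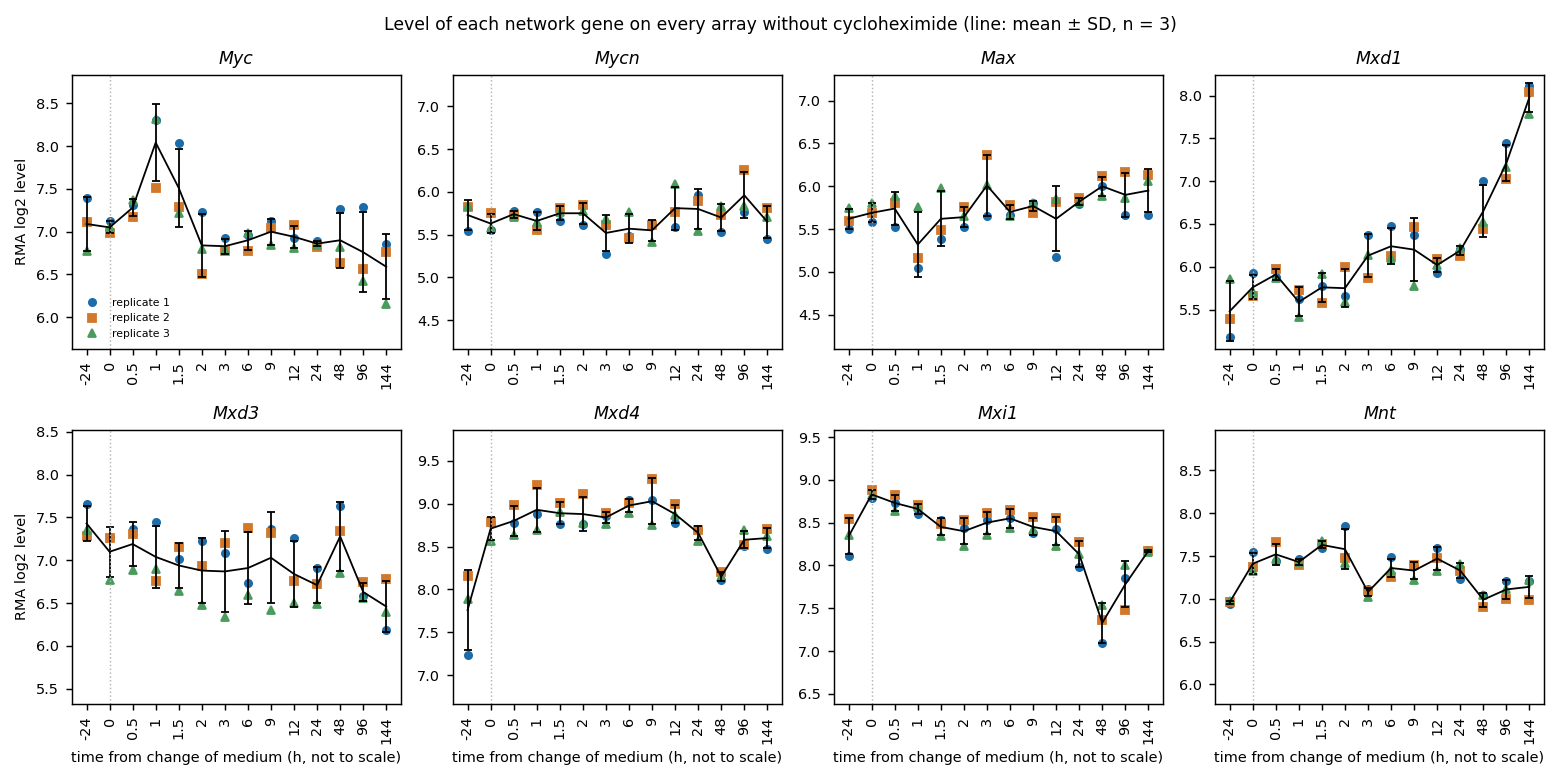
RMA log2 level (vertical axis, the same 3.2-unit height in every panel) of each gene on every array without cycloheximide, against time from the change of medium in h (not to scale, dotted line at 0 h). Symbols are the 3 replicates and the line is their mean ± SD. Myc peaks at 1 h, Mxd1 reaches 7.78 to 8.11 at 144 h, and Mxi1 is lowest at 48 h.

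Myc, the founding activator of the network, had its highest untreated level at 1 h. Its arrays read 7.31, 7.17 and 7.37 at 0.5 h, 8.30, 7.51 and 8.31 at 1 h and 8.03, 7.29 and 7.22 at 1.5 h, against 7.13, 6.98 and 7.05 at 0 h. By 2 h they read 7.23, 6.50 and 6.80. The second array of the 1 h group lay well below the other two but still above all 3 arrays of 0 h, and the 1.5 h group had 1 array apart from the rest. The 1 h difference, 0.99 (SE 0.22), was the only one of the 8 genes called at that time, when 0.192% of genes were called (limma, adjusted p = 0.0378). It was not called in a fit without the cycloheximide arrays (adjusted p = 0.0575) nor in one of only these 2 groups (0.579), and it was lost without any of 5 of the 6 arrays compared. Over all 16 alternatives of this comparison the adjusted p ran from 0.00162 to 0.579. With the adjustment over all single-symbol probe sets, none of the 19 was called at 1 h, the single one of Myc included. At 144 h Myc read 6.86, 6.76 and 6.16, all below the arrays of 0 h, with a difference of -0.46 and an adjusted p of 0.121.

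Of Myc's relatives, Mycn, which drives growth in embryonic and neural tissue, stayed at group means between 5.52 and 5.96 in untreated cells. At 96 h it read 5.77, 6.26 and 5.83, against 5.55, 5.75 and 5.58 at 0 h, a difference of 0.33 (SE 0.14, limma adjusted p = 0.0631). The groups did not overlap, and the blocked fit called the difference (adjusted p = 0.0472). It was 0.50 (0.0175) after quantile normalization again and 0.51 (0.00658) after centring on housekeeping genes, with adjusted p from 0.00658 to 0.443 over all 16 alternatives. The other two probe sets of Mycn differed by 0.10 and 0.01 at 96 h, neither called. Max, the partner of all the others, had group means between 5.32 and 6.01 without the drug, its lowest at 1 h on arrays of 5.05, 5.16 and 5.76. No difference of Max from 0 h was called at any of the 12 times. Mycl, another Myc gene that the 8 do not include, read 7.35 ± 0.58 at 0 h and 5.44 ± 0.26 at 24 h before (SD, n = 3 each), a rise of 1.91 (SE 0.34, limma adjusted p = 9.86e-05).

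Mxd1, a repressor known to accumulate in differentiating cells, rose late. Its group means had stayed between 5.59 and 6.24 from 0.5 h to 12 h, none of them called. Its arrays then read 6.21, 6.13 and 6.22 (24 h), 7.00, 6.44 and 6.52 (48 h), 7.45, 7.03 and 7.16 (96 h) and 8.11, 8.04 and 7.78 (144 h), against 5.93, 5.66 and 5.70 at 0 h. From 24 h on every array lay above all 3 arrays of 0 h, and the groups of 24, 48, 96 and 144 h did not overlap one another. Against 0 h the difference was 0.42 at 24 h (limma, adjusted p = 0.081), 0.89 at 48 h (6.27e-05), 1.45 at 96 h (6.31e-09) and 2.21 at 144 h (SE 0.16, adjusted p = 1.29e-13), the last a 4.63-fold rise. The values of 48, 96 and 144 h were called in all 16 alternatives of each. Between successive times the step was 0.47 at 48 h against 24 h (adjusted p = 0.116), 0.56 at 96 h against 48 h (0.0396) and 0.76 at 144 h against 96 h (0.0222). At that last step 0.313% of genes were called, Mxd1 the only one of the 8, but the call was lost in 6 of 16 alternatives, as was that of the earlier step in 7 of 16. All 3 probe sets of Mxd1 had risen at 96 h and 144 h, at 144 h by 2.21, 1.69 and 0.54, when 28.1% and 24.1% of all probe sets were called.

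**Figure D2:**
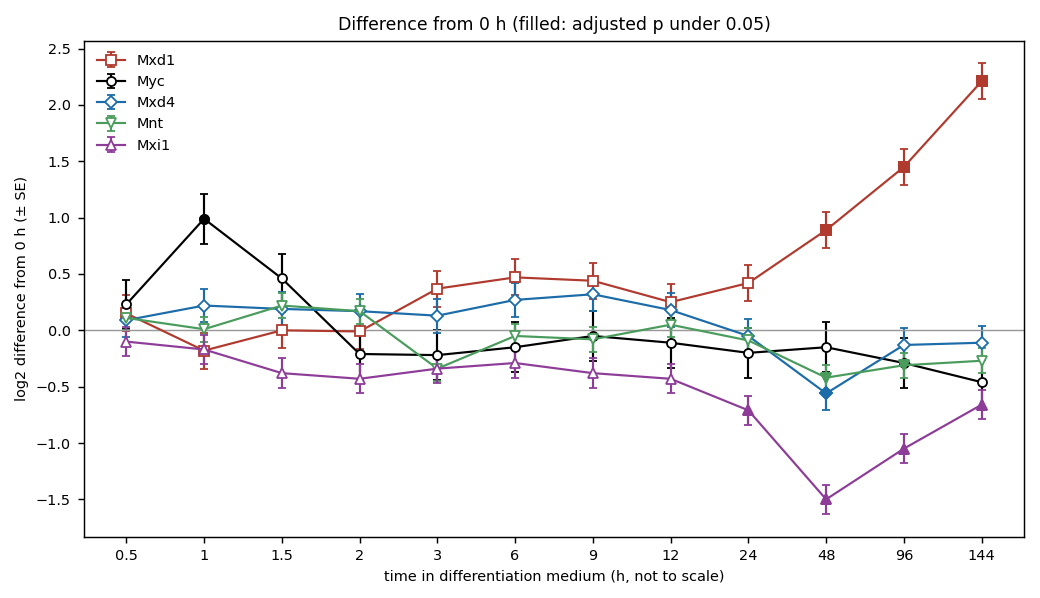
Log2 difference from 0 h (vertical axis, ± SE from the model) against time in differentiation medium in h (not to scale) for the 5 genes that changed over the time course. Filled symbols mark an adjusted p under 0.05: Myc at 1 h, Mxd1 from 48 h, Mxi1 from 24 h, Mxd4 at 48 h, and Mnt at 48 h and 96 h.

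Mxi1, a repressor of the same family with a tumour-suppressor record, moved the other way and then partly returned. Its arrays read 7.98, 8.27 and 8.13 (24 h), 7.09, 7.36 and 7.54 (48 h), 7.85, 7.48 and 8.01 (96 h) and 8.18, 8.17 and 8.16 (144 h), against 8.79, 8.88 and 8.82 at 0 h. At every time from 1 h on all its arrays were below those of 0 h, the highest of its 16 group means at 8.83. The arrays of 24 h and 144 h overlapped those of 24 h before, at 8.11, 8.54 and 8.36. Mxi1 was the only one of the 8 called at 24 h (-0.71, limma adjusted p = 0.000173), when 14% of genes were called. It fell by 1.50 at 48 h (SE 0.13, adjusted p = 1.58e-11), which is 2.84-fold lower, and the differences were -1.05 at 96 h and -0.66 at 144 h. These 4 calls held in all 16 alternatives of each. At 48 h against 24 h Mxi1 and Mxd4 were called, 2 of the 8 genes, when 3.89% of genes were. Mxi1 differed by -0.80 (adjusted p = 0.000111) and Mxd4 by -0.50 (0.0486, lost in 10 of 16 alternatives). At 96 h against 48 h Mxi1 and Mxd1 rose, when 4.64% of genes were called, Mxi1 by 0.45 with overlapping arrays (0.0343, lost in 5 of 16). The second probe set of Mxi1 differed by -1.27 at 48 h, when 22.6% of all probe sets were called, and by -0.59 at 96 h, both called, the second not without any of 3 single arrays. At 144 h this probe set read 5.88, 6.14 and 5.60, against 6.20, 6.47 and 6.27 at 0 h, and was not called. Before 24 h Mxi1 was furthest from 0 h at 2 h and 12 h, by -0.43 each. With the replicate block both were called (adjusted p = 0.0468 and 0.0194).

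Mxd4, another Max-binding repressor, and Mnt, the broadly expressed antagonist of Myc, were both lower at 48 h than at 0 h. At 96 h against 48 h neither was called. In the alternatives Mnt was called at that step in none of 16 and Mxd4 in 1 of 16. Mxd4 read 8.11, 8.20 and 8.14 at 48 h, against 8.78, 8.79 and 8.56 at 0 h, with no overlap and a difference of -0.56 (SE 0.15, limma adjusted p = 0.00459). Mnt read 7.04, 6.90 and 7.04 at 48 h, against 7.55, 7.37 and 7.32 at 0 h, again with no overlap, and differed by -0.42 (SE 0.11, adjusted p = 0.00239). With Mxd1 and Mxi1 these made 4 of the 8 genes called at 48 h, when 26.7% of genes were called. At 96 h the count was 3 of 8 against 32.6% of genes, and at 144 h it was 2 of 8 against 28.4%. Mxd4 read 8.51, 8.52 and 8.69 (96 h) and 8.47, 8.70 and 8.62 (144 h), and neither group was called against 0 h. The difference of Mnt was -0.31 at 96 h (adjusted p = 0.0221, lost in 7 of 16 alternatives) and -0.27 at 144 h (0.0509). Already at 3 h Mnt read 7.12, 7.09 and 7.02, all below the arrays of 0 h. That difference was -0.34 and not called (limma adjusted p = 0.209). These 3 h arrays are also the untreated side of the 3 h drug comparison below. A second, dim probe set of Mnt with a mean level of 3.87 did not follow: it differed by 0.12 at 48 h, and with the mean of both probe sets the 48 h difference of Mnt was -0.15 and not called (adjusted p = 0.107).

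Mxd3, the family member known for expression in dividing cells, was highest at 24 h before and at 48 h and lowest at 144 h among untreated groups. It read 7.64, 7.34 and 6.85 at 48 h and 6.19, 6.78 and 6.40 at 144 h, against 7.27, 7.26 and 6.77 at 0 h. Replicate 3 was the lowest of the 3 arrays in 12 of the 16 groups, and the groups of 144 h and 0 h overlapped narrowly, at 6.78 and 6.77. The 144 h difference of -0.64 missed the threshold (SE 0.26, limma adjusted p = 0.0676). Of its 3 probe sets, at -0.64, -0.65 and -0.82, only the one at -0.65 was called (0.0115). That probe set read 5.61, 6.62 and 6.76 at 144 h, against 6.90, 7.20 and 6.85 at 0 h, and without the first 144 h array its difference was -0.29 and not called (adjusted p = 0.248). It was also lost without the second 0 h array. Mitosis genes also had a higher median at 48 h than at 24 h, but neither Mxd3 nor any mitosis gene was called at that step. Over 9 of them the median level was 10.43 (24 h before), 9.41 (0 h), 8.54 (24 h), 9.16 (48 h) and 7.16 (144 h). Against 0 h, 6 of the 9 had fallen at 24 h, 3 at 48 h and all 9 at 96 h and at 144 h. Of all genes, 7.42%, 14.3%, 17.1% and 14.9% had fallen at these times. How far the share of dividing cells sets the level of Mxd3 was not tested.

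The day before induction was compared as well, at 0 h against 24 h before, with both groups in growth medium. The repressors Mxd4, Mxi1 and Mnt rose, 3 of the 8 genes, when 13.1% of genes were called and 7.26% rose. Mxd4 read 8.78, 8.79 and 8.56 at 0 h, against 7.24, 8.16 and 7.89 at 24 h before, a rise of 0.94 (SE 0.15, limma adjusted p = 1.7e-05). Mxi1 read 8.79, 8.88 and 8.82 at 0 h, against 8.11, 8.54 and 8.36 at 24 h before (0.49, SE 0.13, adjusted p = 0.00698). Mnt read 7.55, 7.37 and 7.32 at 0 h, against 6.94, 6.96 and 6.98 at 24 h before (0.45, SE 0.11, adjusted p = 0.00217). None of these groups overlapped, although the first array of the earlier group was the lowest for both Mxd4, where it lay well below the others, and Mxi1. Without it the rise of Mxi1 was 0.38 and not called (adjusted p = 0.103), while that of Mxd4 stayed called in all 16 alternatives, between 0.64 and 1.14. Myc had overlapping arrays over the same day, at 7.13, 6.98 and 7.05 at 0 h, against 7.39, 7.11 and 6.78 at 24 h before, and was not called. The later comparisons share the 0 h arrays with this one.

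Of the 8 genes, Myc differed the most between cycloheximide and untreated cells at both times. At 1 h Myc read 9.58, 9.29 and 9.76 with the drug, against 8.30, 7.51 and 8.31 without it. At 3 h it read 10.86, 10.73 and 11.08 with the drug, against 6.93, 6.77 and 6.79 without it. No arrays overlapped at either time, and the gap was much wider at 3 h, where treated cells were higher and untreated cells lower than at 1 h. The difference was 1.50 at 1 h (SE 0.22, limma adjusted p = 3e-06) and 4.06 at 3 h (SE 0.22, adjusted p = 1.94e-17), or 2.84-fold and 16.7-fold. The change in drug effect between the times was 2.56 (SE 0.31, adjusted p = 3.25e-07) and held in all 21 alternatives, between 2.43 and 2.82. Within the drug groups alone, Myc was 1.35 higher at 3 h than at 1 h (adjusted p = 2.29e-05). In the order of its 16 levels only these 2 groups stood apart from the next one down.

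**Figure D3:**
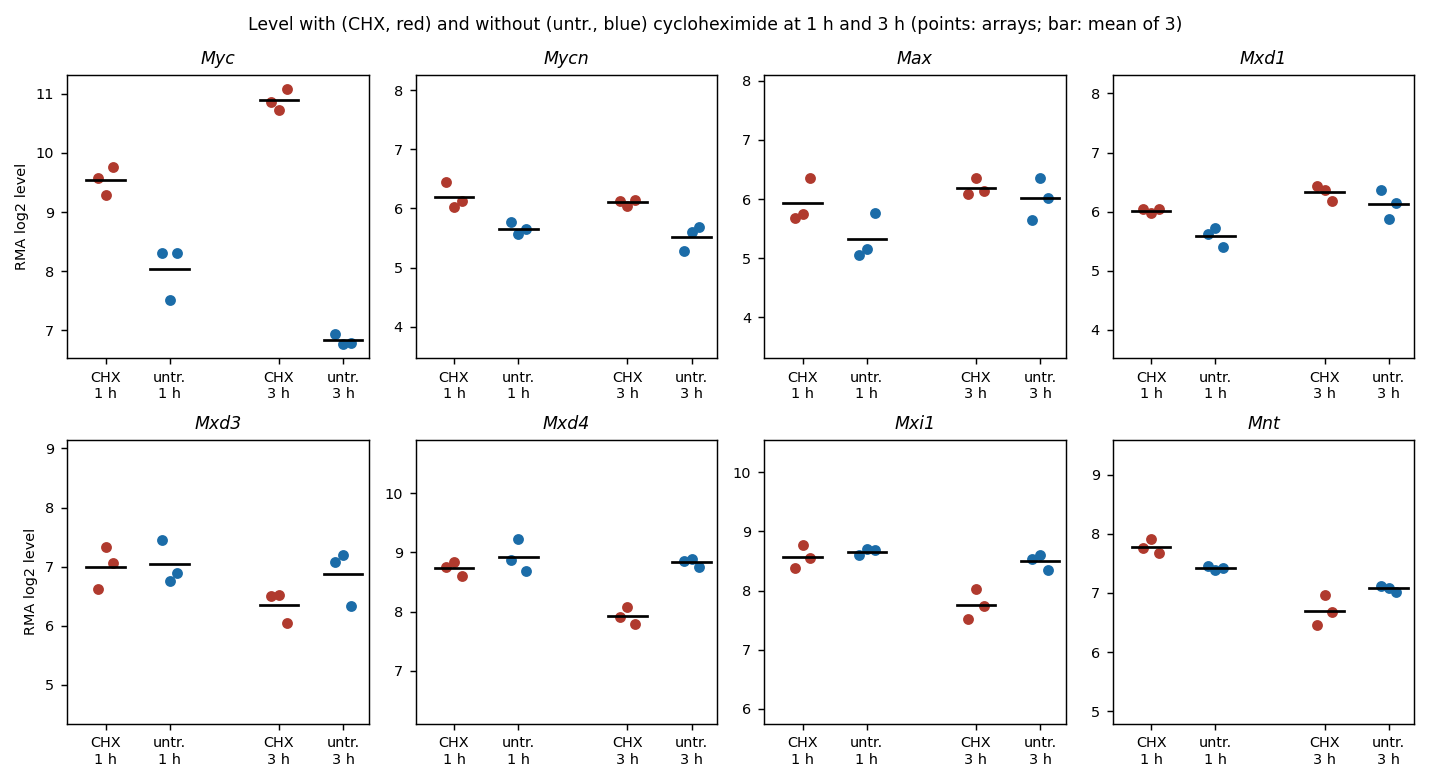
RMA log2 level (vertical axis, 4.8 units high in every panel) of each gene with cycloheximide (CHX, red) and without it (untr., blue), at 1 h and at 3 h of differentiation. Points are arrays and bars their mean. Myc is higher with the drug at both times, and Mxd4, Mxi1 and Mnt are lower with it at 3 h.

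The repressors Mxd4, Mxi1 and Mnt were lower with cycloheximide at 3 h. Mxd4 read 7.91, 8.07 and 7.79 with the drug, against 8.86, 8.89 and 8.76 without it (-0.91, SE 0.15, limma adjusted p = 6.97e-06). Mxi1 read 7.52, 8.03 and 7.74 with the drug, against 8.53, 8.61 and 8.35 without it (-0.73, SE 0.13, adjusted p = 2.66e-05). Mnt read 6.46, 6.96 and 6.68 with the drug, against 7.12, 7.09 and 7.02 without it (-0.38, SE 0.11, adjusted p = 0.00484). All 3 were separate from untreated cells, and they moved against the upward shift of all genes. In this comparison 5 of the 8 genes were called, when 34.4% of genes were, and 3 of the 8 fell, when 3.42% of genes fell. The second, dimmer probe set of Mxi1 did not separate, at 5.51, 6.31 and 5.66 with the drug, against 5.88, 6.27 and 5.69 without it. The calls of Mxd4 and Mxi1 held in all 15 alternatives of each. That of Mnt was lost in 3 of 15, among them the mean of its probe sets (-0.04, adjusted p = 0.645; range over the alternatives 4.19e-07 to 0.645), which takes in a dim probe set that rose by 0.29.

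At 1 h of cycloheximide none of these repressors was called lower. Mxd4 differed from untreated cells by -0.19 and Mxi1 by -0.09, neither called, and Mnt was higher, at 7.76, 7.92 and 7.67 with the drug, against 7.46, 7.39 and 7.43 without it (0.35, SE 0.11, limma adjusted p = 0.0125). The median of all genes was 0.20 higher as well, and the difference of Mnt was 0.03 after quantile normalization of the arrays again (adjusted p = 0.929). Between the drug groups themselves, at 3 h against 1 h, 4 of the 8 genes were called, when 11.8% of genes were, and 3 fell, when 4.63% of genes fell. Mnt differed by -1.08 (adjusted p = 1e-09), Mxd4 by -0.81 (0.000143) and Mxi1 by -0.81 (1.96e-05), and these calls held in all 15 alternatives of each. The change in drug effect, that at 3 h minus that at 1 h, was called for 4 of the 8 genes, when 4.29% of genes were called. It was -0.73 for Mnt (SE 0.15, adjusted p = 0.00146), held in all 21 alternatives, -0.72 for Mxd4 (0.0425, lost in 11 of 21) and -0.64 for Mxi1 (0.0346, lost in 12 of 21).

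Mycn, Max, Mxd1 and Mxd3 differed less than Myc with the drug. At 1 h, 4 of the 8 genes were called, when 24.6% of genes were, and all 4 of them rose, when 24.2% of genes rose. They were Myc, Mnt, Mycn and Max. Mycn read 6.45, 6.03 and 6.13 with the drug, against 5.77, 5.56 and 5.65 without it at 1 h (0.54, SE 0.14, limma adjusted p = 0.00349). At 3 h it read 6.13, 6.04 and 6.15 with the drug, against 5.28, 5.61 and 5.68 without it (0.58, adjusted p = 0.000936). The arrays were separate at both times, but after quantile normalization again the differences were 0.14 and 0.18 and were not called (adjusted p = 0.704 and 0.496). Max read 5.68, 5.75 and 6.35 with the drug, against 5.05, 5.16 and 5.76 without it at 1 h (0.60, adjusted p = 0.0167), with overlap. That call was lost in 6 of 15 alternatives, and the 3 h difference of 0.18 was not called. Mxd1 differed by 0.43 at 1 h (adjusted p = 0.0532) and 0.20 at 3 h (0.377). Mxd3 differed by -0.52 at 3 h (adjusted p = 0.13). The replicate block gave Mxd3 an adjusted p of 0.0333, and after quantile normalization again its difference was -0.89 (0.00688). It was called in 5 of 15 alternatives, with adjusted p from 0.00688 to 0.39.

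Probe sets of one gene did not always move together with cycloheximide. Of the 19, 7 were called at 1 h and 11 at 3 h, when 23.2% and 31.8% of all probe sets were. Of the 4 for Mxd4, the brighter pair, with means of 8.65 and 7.13 over all arrays, fell at 3 h, at -0.91 and -0.96, whereas one with a mean of 5.07 rose by 0.44 at 1 h and 0.42 at 3 h. Of the 3 for Mxd1, one with a mean of 4.83 rose by 0.64 at 1 h and 0.77 at 3 h, while the brightest set was not called at either time. The dimmer set of Mxi1, with a mean of 5.95, overlapped untreated cells at 3 h, where the brighter one fell. Its group means were 5.83 with the drug and 5.95 without it at 3 h, and 6.43 and 6.05 at 1 h. The dim set of Mnt rose at both times, by 0.49 and 0.29, the call at 3 h being lost without any of 4 single arrays. Of the 3 for Mxd3, the one with a mean of 6.82 fell by 0.99 at 3 h (limma, adjusted p = 0.00014 over probe sets) and the other two were not called. It was also the one called at 144 h against 0 h. Which transcripts each probe set reads was not tested.

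**Figure D4:**
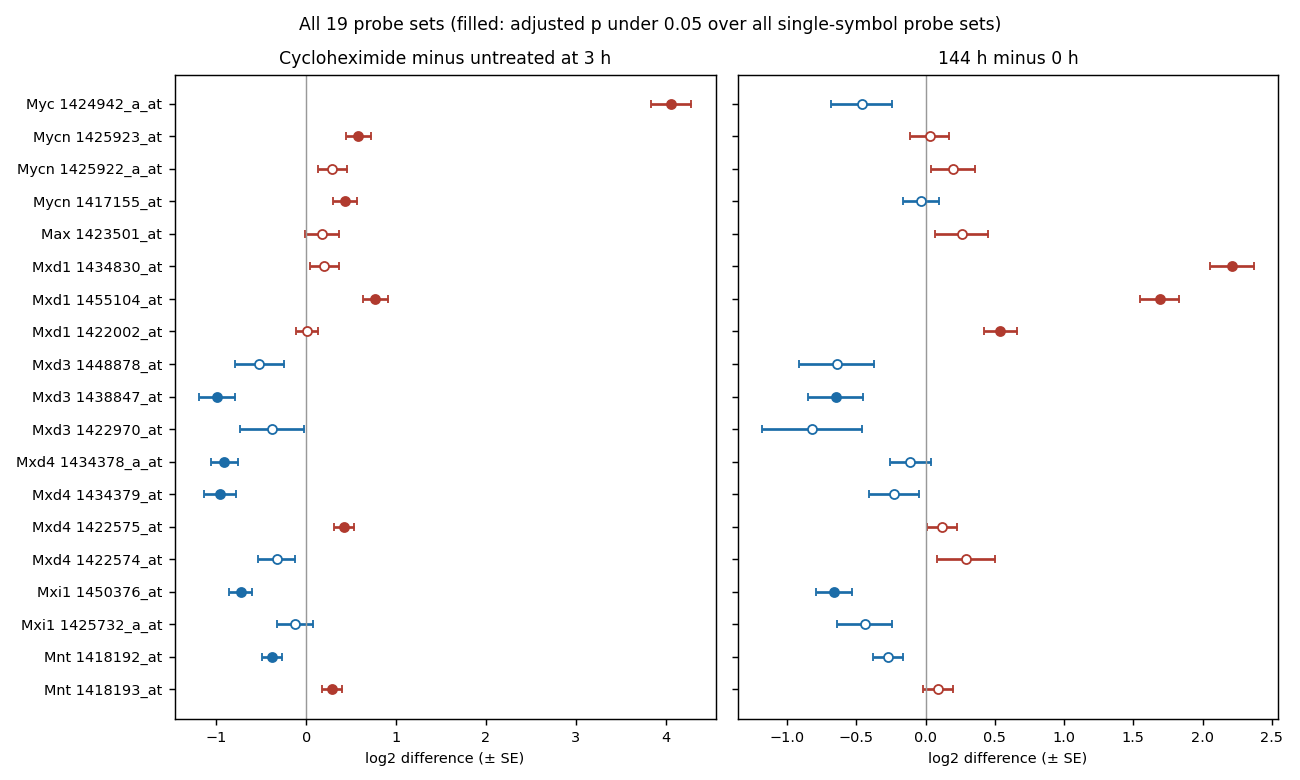
Log2 difference (horizontal axis, ± SE from the model) of each of the 19 probe sets between cycloheximide and untreated cells at 3 h (left) and between 144 h and 0 h (right), brightest probe set of each gene on top. Filled points have an adjusted p under 0.05 over the 34945 single-symbol probe sets, red is higher and blue lower. All 3 Mxd1 probe sets are higher at 144 h, and those of Mxd4 and Mnt are split with the drug.

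Levels of Mxd4, Mxi1 and Mnt went together over the 16 group means, with Pearson's r of 0.75 for Mxd4 and Mnt, 0.66 for Mxi1 and Mnt and 0.61 for Mxd4 and Mxi1. Mxd1 went the opposite way to Mxi1 (-0.54) and Mxd3 (-0.60), and Myc had its highest r with Mycn (0.73), whose highest means were also in the drug groups. These values describe 16 points that come from one line and one platform. Among 5431 genes whose group means span at least 1 log2 unit, those closest to Myc were Fbxo7 (r = 0.99), Edn1 and Clasrp (0.98 each). Over the 14 untreated groups alone their r was 0.93, 0.81 and 0.72. Closest to Mxd1 were Fam174a, Atp13a3 and Tsacc (0.96 each), and to Mxd3 the mitotic cyclin Ccnf, the importin Kpna2 (0.94 each) and the tubulin Tubb5 (0.91). Mxi1 was closest to Pdcd4, Jarid2 (0.91 each) and Ulk2 (0.90), Mxd4 to Sft2d2 (0.91), Srpx2 and Itm2c (0.90 each), and Mnt to Clip3 (0.85), Tril and Thra (0.80 each).

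Genes that work with or under the network were counted in lists. In the day before induction, 13 of 23 nucleolar and ribosome assembly genes known as Myc targets fell and none rose, with a median of -0.59 against 0.01 for all genes. Of all genes, 5.86% fell and 7.26% rose over that day. Nop56, a box C/D snoRNP core protein, read 8.85 ± 0.20 at 0 h and 9.79 ± 0.35 at 24 h before (SD, n = 3 each; -0.94, limma adjusted p = 2.37e-05), and Dkc1, the pseudouridine synthase dyskerin, fell by 1.14. Of 25 growth and metabolic targets, 17 fell and none rose, with a median of -0.51. Nme1, a nucleoside diphosphate kinase, read 10.37 ± 0.06 at 0 h and 11.49 ± 0.20 at 24 h before (-1.12, adjusted p = 3.02e-10), and Cad, the first enzyme of pyrimidine synthesis, fell by 1.14. Of 9 genes known to be repressed by Myc, 3 rose: Gadd45a by 2.01, Cebpa by 1.37 and Ndrg1 by 0.99. After centring on housekeeping genes the counts were 7 nucleolar and 12 growth genes fallen, with none risen, when 14.7% of all genes were called. Mitosis genes fell too over that day, 4 of 9, with a median of -0.83. The level of Myc itself was given above and was not called.

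In differentiation medium nucleolar and growth targets were first called higher than at 0 h. At 24 h, 8 of the 23 nucleolar and 4 of the 25 growth genes had risen and none had fallen, among them Rrp12 (6.70 ± 0.14 at 24 h and 5.34 ± 0.41 at 0 h, 1.36, limma adjusted p = 0.000811) and Nop2 (0.86). Of all genes 6.56% had risen at 24 h and 7.42% had fallen. After centring on housekeeping genes 14 nucleolar and 13 growth genes had risen, when 27.8% of all genes were called. The median of all genes was then 0.20, against 0.52 for nucleolar and 0.41 for growth genes. Of the 9 genes repressed by Myc, 1 had risen and 2 had fallen at 24 h, and 1 had risen and 3 had fallen at 48 h. At 48 h 12 nucleolar genes had risen and 2 had fallen, with a median of 0.55 against 0.06 for all genes, and 11 of the 25 growth genes had risen with none fallen, when 12.4% of all genes had risen and 14.3% had fallen. At 144 h, when 13.5% of all genes had risen and 14.9% had fallen, they were mixed: 5 nucleolar genes had risen and 4 had fallen, with Ncl, nucleolin, at -1.01 and Npm1, nucleophosmin, at -0.74, and 3 growth genes had risen and 6 fallen. Centring on housekeeping genes made this 11 risen and 2 fallen nucleolar genes, and 6 risen and 2 fallen growth genes. With that centring 53.4% of all genes were called at 144 h. The median of all genes was then 0.28, against 0.39 for nucleolar and 0.12 for growth genes. Growth genes that had fallen included Hspd1, a mitochondrial chaperonin, at -0.83 and the cell cycle kinase Cdk4 at -0.77. Of the 9 genes repressed by Myc, 3 had risen at 144 h, namely Cdkn1a, the cell cycle inhibitor p21, by 2.60, Gadd45a by 1.96 and Ndrg2 by 1.50, and 3 had fallen.

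**Figure D5:**
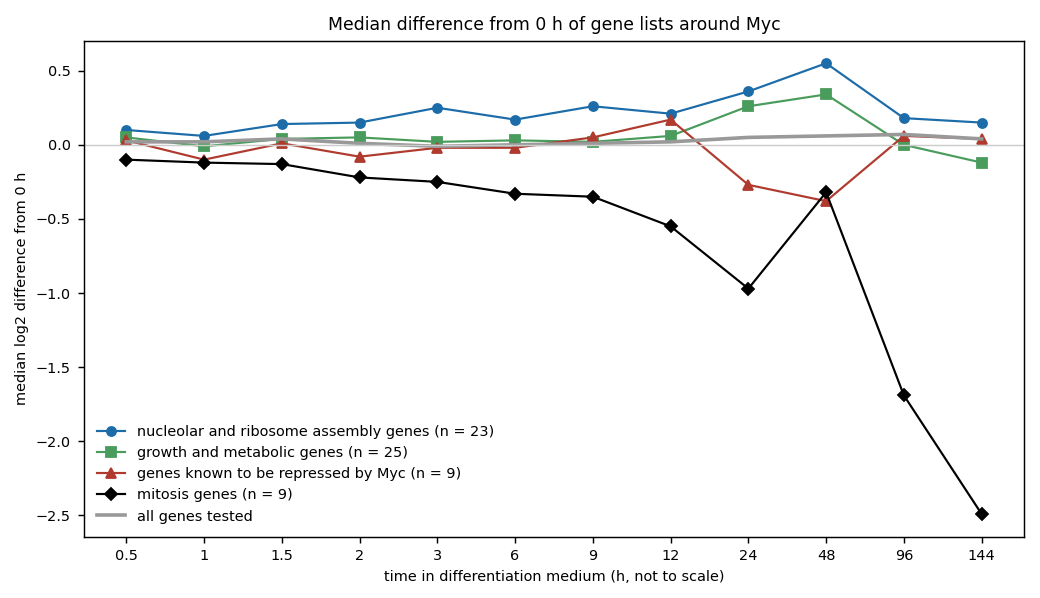
Median log2 difference from 0 h (vertical axis) of 4 gene lists and of all genes tested (grey), against time in differentiation medium in h (not to scale). Nucleolar and growth genes peak at 48 h, with medians of 0.55 and 0.34, and the 9 mitosis genes reach -2.49 at 144 h.

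Cofactor genes were called in both directions by 144 h. Of 10 corepressor genes, 3 had risen and 4 had fallen at 144 h, when 13.5% of all genes had risen and 14.9% had fallen. Sap30 was higher, at 9.01 ± 0.12 at 144 h and 8.13 ± 0.08 at 0 h (SD, n = 3 each; 0.88, limma adjusted p = 1.79e-05). The deacetylases Hdac1 and Hdac2 fell, at -0.97 and -0.72, and so did Sin3a, the scaffold that Mxd proteins bind, at -0.66. Of 13 coactivators, 4 had fallen and 1 had risen, with Crebbp at -0.73, Brd8 at -0.68, Trrap, the scaffold that Myc binds, at -0.66 and Ep300 at -0.54. Among 12 genes that act on the stability of Myc protein, 3 rose and 3 fell. Fbxw7, the ubiquitin ligase subunit that marks Myc for destruction, read 7.74 ± 0.40 at 144 h and 6.19 ± 0.09 at 0 h (1.55, adjusted p = 4.17e-08). Cip2a, which protects Myc from dephosphorylation, read 3.38 ± 0.27 at 144 h and 5.81 ± 0.51 at 0 h (-2.43, adjusted p = 1.15e-07), and Aurka and Skp2 also fell, at -2.28 and -1.87. Cip2a, Aurka and Skp2 are also genes of dividing cells, and the mitosis list was at a median of -2.49 at the same time.

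In the cycloheximide cells of 3 h, where Myc mRNA was highest, 3 of 23 nucleolar genes rose and none fell, with a median of 0.30 against 0.19 for all genes. The 3 risen genes are a smaller share than the 30.9% of all genes that rose, and 3.42% of all genes fell. After quantile normalization again none rose and 3 fell. Of 25 growth genes, 4 rose and 3 fell, and 3 rose and 8 fell after that normalization. The nucleotide and polyamine enzymes Ctps and Odc1 were the clearest, Ctps at 10.51 ± 0.14 with the drug and 9.14 ± 0.11 without it (SD, n = 3 each; 1.36, limma adjusted p = 5.73e-12) and Odc1 at 10.72 ± 0.04 with the drug and 9.69 ± 0.06 without it (1.03, adjusted p = 1.99e-09). Of the 9 repressed genes, Gadd45a rose by 2.62 and Cebpa by 1.32, and Ccng2, cyclin G2, fell by 3.13. Txnip, the main target of the related MondoA and Mlx factors, read 11.14 ± 0.13 with the drug and 8.86 ± 0.28 without it at 1 h (2.28, adjusted p = 1.27e-10), and it was 2.83 higher with the drug at 3 h. Of the 5 other partners of Max and Mlx, none was called at 1 h and 4 rose at 3 h, Mga by 0.85 and Mlxip by 0.52 the most. Of the 13 coactivators, 6 rose at each time and none fell. Of all genes, 24.2% rose at 1 h and 30.9% at 3 h. After quantile normalization again, no partner was called at 3 h, and 1 coactivator rose at 1 h and 3 at 3 h, where 1 fell. With that normalization 6.56% of all genes were called at 1 h and 24.1% at 3 h. These are mRNA levels, and protein was not measured.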

How the data were processed

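The values used were the series matrix of 48 arrays, deposited on a log2 scale and made by the authors with RMA (background correction, normalization between arrays and probe set summary), per the submitters' processing notes. The version of RMA, and whether all arrays went through it together, are not given in the sources used here. Of 45101 probe sets, 64 were controls, 932 listed several symbols or identifiers, and 34945 had a single symbol. Where several probe sets shared a symbol, the brightest on average stood for the gene, which left 18193 genes. Arrays of the same group correlated at 0.9818 to 0.9955. The number of arrays limits the precision.

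limma 3.58.1 in R 4.3.3 was used to fit the 16 group means over all 48 arrays (32 residual degrees of freedom), after a check on simulated data. Tests were two-sided, and a gene was called at a Benjamini-Hochberg adjusted p under 0.05 over all genes. Where probe sets are named, the adjustment was over all single-symbol probe sets.

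The 8 members always received values. From each list, up to 4 called genes of largest difference in a comparison, and the 3 genes closest to each member by Pearson's r, could be named. Single probe sets that moved against the brightest one were chosen after their values were seen. The members and lists were chosen with earlier results of these data known.

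Alternatives were quantile normalization again, centring on housekeeping genes, array weights, a replicate block, trend and robust moderation, only the groups compared, the mean of probe sets, no probe sets that may cross-hybridise, a filter at a group mean of 5, each array left out, and, added after seeing the data, no cycloheximide arrays and each array left out for single probe sets. None of the members' probe sets was of the kind left out as possibly cross-hybridising, and all members passed the filter. Those settings therefore kept every member's levels and changed only which other genes entered the fit and adjustment. The mean of probe sets likewise kept the levels of Myc and Max, which have a single probe set each. Counts of alternatives include these settings. Arrays of the same replicate number deviated together in 300 of 360 pairs (r over 0.1, median 0.31). All 3 pairs did so at 0.5 h and from 1.5 h to 96 h against 0 h and for cycloheximide at 3 h, but not at 1 h, 144 h, 0 h against 24 h before or cycloheximide at 1 h. The labels give only the number.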

Additional observations from a re-analysis of the deposited data

Results flagged for a closer look

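In the network, 4 genes differed in their response to cycloheximide between 3 h and 1 h, by a test of the difference itself in limma. For Myc the effect at 3 h minus that at 1 h was 2.56 (SE 0.31, adjusted p = 3.25e-07). For Mnt it was -0.73 (adjusted p = 0.00146), for Mxd4 -0.72 (0.0425) and for Mxi1 -0.64 (0.0346). The mean level of Myc was 10.89 at 3 h and 9.54 at 1 h with the drug, and 6.83 at 3 h and 8.04 at 1 h without it. Drug-treated cells had been in cycloheximide for 4 h and 2 h at these times.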

How the results depend on the processing

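Of 2944 recomputed values of single members, 2791 stayed on their side of the threshold, 98 were no longer called and 55 became called. No called value changed sign. The total includes the settings named above that could not change a member's levels. The number of members called differed by over 1.5 times from the value given in these cases. At 1 h against 0 h it was 0 with only the groups compared and without the cycloheximide arrays, against 1. At 24 h it was 2 after quantile normalization again, centring on housekeeping genes, array weights, and with only the groups compared. At 144 h it was 4 with array weights, 5 with the replicate block and 4 with the filter on dim genes, against 2. With cycloheximide at 1 h it was 1 after quantile normalization again and 1 after centring, against 4. For the change in drug effect it was 2 after centring and 2 with only the groups compared, against 4.

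Leaving out single arrays gave 5 to 6 members for the F-test, 2 to 3 for 0 h against 24 h before, 0 to 1 at 1 h, 1 to 1 at 24 h, 2 to 4 at 144 h, 3 to 4 and 4 to 6 with cycloheximide at 1 h and 3 h, and 2 to 4 for the change in effect. At 144 h the 4 came without the third 0 h array, and for the change in effect the 2 came without any one of 7 arrays. At 1 h only the set without the second 1 h array kept its call. The cause was not tested. The block changed no called member to uncalled; other calls that it added were Myc, Mxd3 and Mnt at 144 h (adjusted p = 0.046, 0.00917 and 0.0404) and Mxd1 with cycloheximide at 1 h (0.0351), where not all 3 pairs deviated together, and among steps Mnt at 48 h against 24 h (0.0409), Mxd3 and Mxd4 at 96 h against 48 h (0.0324 and 0.0225) and Mxd3 between the drug groups (0.0168). Those on Mycn, Mxi1 and Mxd3 at 3 h of cycloheximide stand with the results.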
